A study of Mus musculus with 4 samples.

Results

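The nuclear-encoded subunits of the oxidative phosphorylation machinery were examined in CD51+;CD200+ skeletal stem/progenitor cells. Genes were taken by symbol, as every *Nduf* a, b, c, s or v gene followed by a number, *Sdha* to *Sdhd*, and every gene whose symbol begins with *Uqcr*, *Cox4* to *Cox8* or *Atp5*. The pattern found 84 of 23946 gene symbols, and 83 of these reached 1 FPKM (fragments per kilobase of transcript, scaled to the mapped fragments of the library) in at least 1 library, among 13998 symbols that did so. The remaining gene, *Cox8c*, was listed at 0 in all 4 libraries. By complex, the pattern gave 37 genes of complex I, 4 of complex II, 8 of complex III, 18 of complex IV and 17 of complex V.

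The cells came from wild type CD-1 mice on postnatal day 3. They were sorted by flow cytometry from 3 sutures of the skull, namely the posterior frontal suture (PF), the sagittal suture (SAG) and the coronal suture (COR), and from the growth plate (GP) of the tibia, with 1 bulk RNA-seq library per tissue. PF is the suture that fuses in normal mice, SAG and COR are patent, and GP served as a population from a long bone. Cells of many pups were pooled and sorted in repeated passes, each dissected suture included dura mater and periosteum, and cDNA was amplified from low input RNA. Since each tissue is represented by 1 library, replicate error is unknown, no difference below carries a test, and each comparison is between libraries. In such bulk samples, fewer cells of a type and less RNA per cell cannot be told apart.

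Oxidative phosphorylation couples the oxidation of NADH and succinate to the synthesis of ATP in the inner mitochondrial membrane. Complexes I and II pass electrons through ubiquinone to complex III, cytochrome c carries them to complex IV, which reduces oxygen, and complex V uses the resulting proton gradient to make ATP. Most subunits are encoded in the nucleus, a few catalytic ones by mitochondrial DNA. Several complex IV subunits exist as a widely expressed form and a form used in particular tissues, such as heart and skeletal muscle, lung or testis.

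The labels were checked against marker genes. *Itgav*, which encodes CD51, was at 6.20 to 15.0 FPKM and *Cd200* at 23.5 to 62.6 FPKM, and *Ptprc*, *Tek* and *Thy1*, genes of surface proteins used to exclude cells, were below 1 FPKM in every library. Of the other genes behind excluded surface proteins, *Enpep* (6C3) was at 1.39 to 7.05 FPKM and *Eng* (CD105) at 0.68 to 1.70 FPKM, both highest in PF. All 7 skeletal genes listed, among them *Runx2*, *Sp7*, *Prrx1* and *Sox9*, were above 1 FPKM in all 4 libraries, but at unlike levels. *Col2a1*, the cartilage collagen, reached 1750 (SAG) and 1731 (GP) FPKM against 31.4 (PF) and 35.4 (COR), and *Sp7*, an osteoblast factor, was at 199.9 in COR against 7.93 in SAG. The SAG library also held 5103 FPKM of *Ttr*, a transcript typical of choroid plexus, against 465 in PF, 141 in COR and 9.74 in GP. Smallest FPKM steps placed the depth of the PF library at 44.8% of that of SAG, with COR at 89.8% and GP at 83.3%. The part of these differences in the results below was not tested.

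Oxidative phosphorylation transcripts were abundant in all 4 libraries. Their summed level was 24117 (PF), 17886 (SAG), 20491 (COR) and 20989 (GP) FPKM, or 4.38%, 4%, 4.18% and 4.07% of all FPKM in the respective library. The median member was at 232 (PF), 180 (SAG), 202 (COR) and 208 (GP) FPKM, whereas the median of all genes at 1 FPKM or more was at 7.03, 7.79, 7.18 and 7.28 FPKM. Between 67 and 69 of the 84 members lay in the top decile of genes of each library. The order of the members by level was shared among libraries, with Spearman coefficients across the 83 genes of 0.959 (PF and GP) to 0.988 (COR and GP). These are coefficients across genes, which share their libraries and are not independent replicates, and short transcripts tended to sit higher (-0.27 to -0.31 between level and transcript length).

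**Figure D1:**
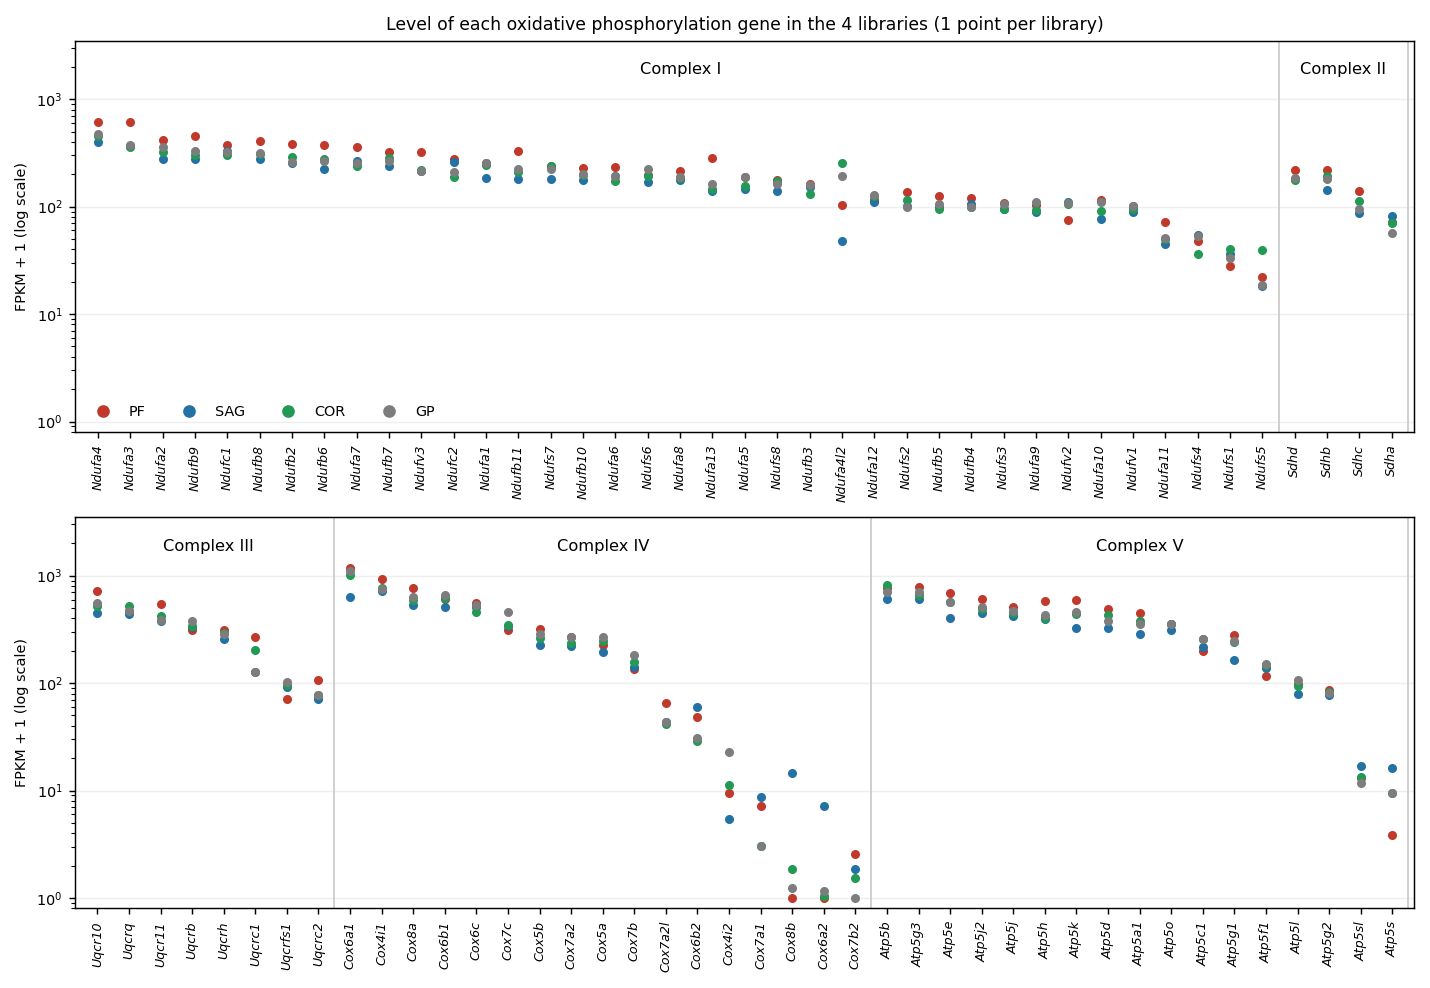
Level of each member in FPKM + 1 (log scale), grouped by respiratory complex and ordered by mean level, with 1 point per library. Most genes show 4 points close together, from 1165 FPKM of *Cox6a1* in PF downward, and the points separate for *Ndufa4l2*, *Ndufs5*, *Atp5s* and the tissue forms of complex IV subunits.

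The most abundant members were *Cox6a1* and *Cox4i1*. *Cox6a1*, the widely expressed form of subunit 6A, was at 1165 (PF), 636 (SAG), 1011 (COR) and 1101 (GP) FPKM. *Cox4i1*, the common form of subunit 4, had 932 (PF), 722 (SAG), 759 (COR) and 749 (GP) FPKM. Further series of 4 values keep the order PF, SAG, COR and GP. In complex V the leading genes were *Atp5b*, which encodes the catalytic beta subunit, and *Atp5g3*, 1 of 3 genes for the membrane ring of subunit c. *Atp5b* was at 763 (PF), 603 (SAG), 818 (COR) and 700 (GP) FPKM. *Atp5g3* was at 777, 609, 657 and 704 FPKM. The lowest medians by complex were those of complex II, at 177 (PF), 113 (SAG), 144 (COR) and 138 (GP) FPKM, and the highest were those of complex V in PF, SAG, COR and GP, at 447, 311, 376 and 357 FPKM.

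Upstream sequences of 5 genes are shown as examples of widely expressed subunits and of tissue forms. Promoters of 66 of the 84 genes were matched in RefSeq (GRCm38.p6), with 71 promoters spanning 250 bases before to 50 after the start. Printed are the 200 bases before the start, on the strand of the gene, for *Cox6a1* (chr5:115348959-115349158, minus strand), *Atp5k* (chr5:108434400-108434599, minus strand) and *Sdhb* (chr4:140961071-140961270, plus strand), which are widely expressed, and for *Cox7a1* (chr7:30183971-30184170, plus strand) and *Cox8b* (chr7:140900447-140900646, minus strand), whose products are forms of muscle and brown fat. Capitals mark matches on either strand to GCGCATGC (the binding motif of NRF1, a regulator of respiratory genes), CCGGAAG (ETS factors such as GABP), AAGATGGC (YY1), GGGCGG (Sp factors) and CCAAT.
*Cox6a1*: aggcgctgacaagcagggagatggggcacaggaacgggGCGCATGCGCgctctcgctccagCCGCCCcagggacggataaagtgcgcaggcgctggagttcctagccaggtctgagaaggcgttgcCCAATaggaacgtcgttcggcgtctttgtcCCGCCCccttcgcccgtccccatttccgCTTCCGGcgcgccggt
*Atp5k*: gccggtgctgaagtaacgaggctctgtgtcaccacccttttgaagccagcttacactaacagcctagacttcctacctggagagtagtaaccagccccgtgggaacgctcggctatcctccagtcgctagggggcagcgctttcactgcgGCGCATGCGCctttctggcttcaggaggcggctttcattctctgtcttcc
*Sdhb*: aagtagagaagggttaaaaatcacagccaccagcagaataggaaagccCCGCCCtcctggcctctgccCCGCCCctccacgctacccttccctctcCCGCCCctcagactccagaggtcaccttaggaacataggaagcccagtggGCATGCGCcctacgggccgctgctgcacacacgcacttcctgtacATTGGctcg
*Cox7a1*: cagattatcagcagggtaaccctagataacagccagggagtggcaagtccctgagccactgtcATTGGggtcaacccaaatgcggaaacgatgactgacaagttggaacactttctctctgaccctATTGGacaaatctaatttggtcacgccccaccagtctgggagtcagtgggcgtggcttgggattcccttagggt
*Cox8b*: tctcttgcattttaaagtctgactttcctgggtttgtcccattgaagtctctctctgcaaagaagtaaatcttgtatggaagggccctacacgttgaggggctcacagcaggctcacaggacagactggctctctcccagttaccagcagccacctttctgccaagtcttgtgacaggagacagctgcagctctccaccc
The *Cox6a1* window held 6 matches, that of *Sdhb* 5, that of *Atp5k* 2 overlapping ones to the palindromic NRF1 motif, that of *Cox7a1* 2 to CCAAT and that of *Cox8b* 0. The 5 genes were chosen by hand and do not represent either group. Each widely expressed example has an NRF1 match, which 10 of the 71 member promoters had. *Ndufa4*, *Cox5b* and *Cox7c* matched none of the 5 motifs over the full promoter, and the testis form *Cox6b2* matched Sp and CCAAT. Over the full promoters, the NRF1 motif was found in 14.1% of the 71 member promoters and in 2.71% of all 32851 promoters, and in 4.91% of those of genes at 1 FPKM or more. The ETS motif was found in 22.5%, 8.86% and 15.8% of these, and the YY1 motif in 12.7%, 2.75% and 4.08%. For the Sp motif the shares were 38%, 35.7% and 60.9%, and for CCAAT 42.3%, 37.4% and 37.5%. The NRF1, ETS and YY1 shares were thus higher among members than among promoters of expressed genes, and the Sp share was lower. A match describes these letters only, not a bound site.

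Members varied less among libraries than genes in general did. The ratio of the highest to the lowest library, on FPKM + 1, had a median of 1.44-fold over the 83 members, 2.02-fold over all 13998 genes and 1.63-fold over 4841 genes at 10 FPKM or more in every library. It was under 1.5-fold for 54 members (65.1%), against 23.1% of all genes and 39% of the abundant ones. The median was 1.36-fold for complex V, 1.44-fold for complexes I and III, 1.47-fold for complex IV and 1.48-fold for complex II. Complex IV held the widest differences, with 11 of its 17 genes at 1 FPKM or more under 2-fold, against 34 of 37 in complex I and 16 of 17 in complex V. Low variation was not particular to the members. The share within 1.5-fold for PF vs SAG was 69.9% of members, 77.9% of mitochondrial ribosomal protein genes and 88.5% of cytosolic ones. For SAG vs GP these shares were 89%, 96.1% and 78.2%. The mitochondrial ribosomal share was above that of members in every pair.

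**Figure D2:**
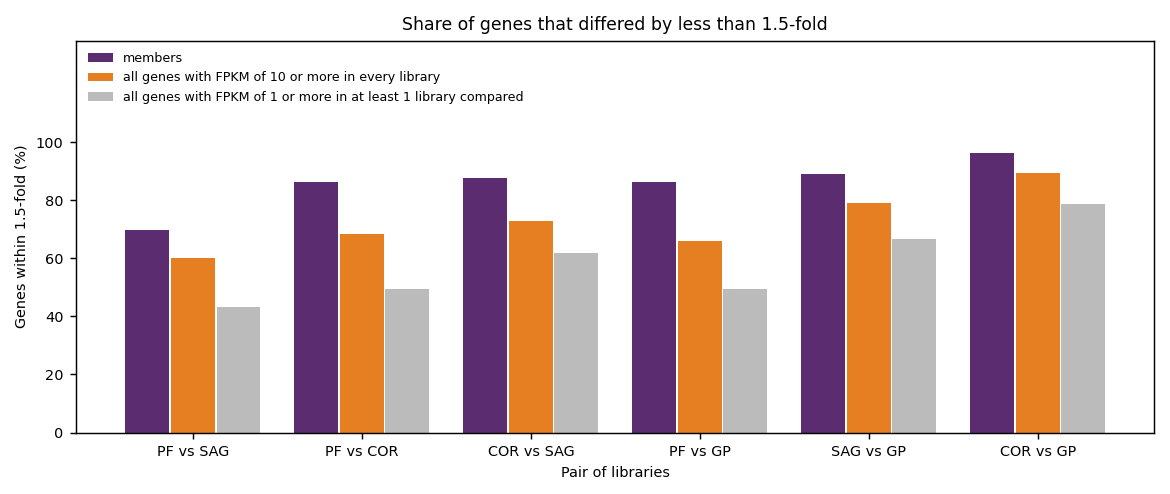
Share of genes (%) that differed by less than 1.5-fold in each of the 6 pairs of libraries, for members, for all genes at 10 FPKM or more in every library, and for all genes at 1 FPKM or more in at least 1 library compared. The member bars run from 69.9% (PF vs SAG) to 96.2% (COR vs GP) and are the tallest of the sets shown in every pair. Ribosomal protein genes are not shown.

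PF was most often the highest library and SAG most often the lowest as the FPKM were deposited, while scaling all libraries to the same total left 34 and 20 members at these extremes. As deposited, 53 of 83 members (63.9%) were highest in PF, where 35.2% of all genes were, and 52 (62.7%) were lowest in SAG, where 27.4% of all genes were. Among genes at 10 FPKM or more in every library, these shares were 38.9% and 37.5%. Both held for 38 members (45.8%), against 15.3% of all genes. GP was highest for 14 members (16.4% of all genes), SAG for 9 (28.4%) and COR for 7 (19.9%). Without the SAG, COR or GP library, PF was highest for 56, 57 and 58 members, against 42.6%, 39.9% and 39.1% of all genes. Without the PF, COR or GP library, SAG was lowest for 58, 58 and 54, against 38.2%, 32.3% and 33.2% of all genes. Under quantile normalization the counts were 33 and 14. The shares of all genes at these extremes were not computed for quantile normalization or equal totals. The PF library also held more RNA of blood cells, with the globin gene *Hba-a1* at 9.40 FPKM against 1.26 to 1.72 elsewhere, and a summed level of 5 leukocyte genes of 34.4 FPKM against 5.54 to 10.7, of which *Lyz2* made up 30.2 FPKM in PF. *Ptprc*, which marks leukocytes, was at 0.57 FPKM in PF. The part of these cells in the counts was not tested.

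As deposited, the comparison of the fusing PF suture with the patent SAG suture gave the largest median of the 6 pairs, which it did not with equal totals or under quantile normalization. The median log2 ratio of members, on FPKM + 1, was 0.34 with 67 of 83 above 0, but this shift shrank to 0.04 when totals were made equal and to 0.02 under quantile normalization. The median of all genes was 0.03, and equal totals moved it to -0.26, so that relative to all genes the members stood 0.315 higher as deposited and 0.299 higher with equal totals, with a difference of -0.022 under quantile normalization and of 0.117 after correction for transcript length. Genes with a coding transcript of at most 1000 bases had a median of 0.345 in this pair, close to that of the members, and 37.4% of them were 1.5-fold or more higher in PF. By the 1.5-fold mark, 22 members were higher in PF (28.1% of all genes were) and 3 were lower (28.5%). A 3-fold difference was reached by 3 members, *Atp5s*, *Cox6a2* and *Cox8b*, all higher in SAG, and by 15.7% of all genes. The share of members past 1.5-fold toward PF, 26.5%, was near that of all genes, whereas 3.61% were past it toward SAG. Among genes at 10 FPKM or more in every library these shares were 25.5% and 14.3%.

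PF also stood above the second patent suture, COR. The median log2 ratio of members was 0.25 (0.05 for all genes), 0.08 with equal totals and 0.11 under quantile normalization. For genes with a coding transcript of at most 1000 bases the median was 0.31, above that of the members. Of these short genes, 38.2% were 1.5-fold or more higher in PF. Relative to all genes, the members stood 0.201 higher as deposited and 0.0454 higher after correction for transcript length. By the 1.5-fold mark, 8 of 81 members were higher in PF (26.9% of all genes) and 3 were lower (23.6%), and no member reached 3-fold (11.7%). The members farthest toward PF were *Cox7a1*, *Ndufa13* and *Ndufa3*, and those farthest toward COR, among genes at 1 FPKM or more in either library, were *Ndufa4l2*, *Atp5s* and *Ndufs5*.

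The 2 patent sutures were closer, with a median log2 ratio of COR to SAG of 0.14 (-0.02 for all genes) that turned to -0.08 under quantile normalization. By the 1.5-fold mark, 5 of 82 members were higher in COR (16.2% of all genes) and 5 were lower (21.8%). A 3-fold difference was reached by 3, *Ndufa4l2* higher in COR and *Cox6a2* and *Cox8b* higher in SAG, and by 9.25% of all genes. On FPKM + 1, *Uqcrc1* stood 1.60-fold and *Cox6a1* 1.59-fold higher in COR.

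Against the growth plate, PF had a median log2 ratio of 0.18 (0.03 for all genes), SAG of -0.16 (0.03) and COR of -0.05 (0.02), and the SAG value turned to 0.04 with equal totals and to 0.10 under quantile normalization, the COR value to 0.02 and 0.00201. For genes with a coding transcript of at most 1000 bases, these medians were 0.19 (PF), -0.14 (SAG) and -0.11 (COR) as deposited. For PF, 8 of 81 members were 1.5-fold or more higher (25.9% of all genes), 3 were lower (24.6%) and none was 3-fold apart (12%). For SAG, 5 of 82 were higher (18%), 4 were lower (15.4%) and 4 were 3-fold apart (8.66%), namely *Cox6a2* and *Cox8b* higher and *Cox4i2* and *Ndufa4l2* lower. For COR, 2 of 80 members, *Ndufs5* and *Uqcrc1*, were higher (8.79%), *Cox4i2* was lower (12.5%), and none was 3-fold apart (4.4%). COR and GP were thus the most alike pair for these genes, with 77 of 80 members (96.2%) within 1.5-fold. The same pair was the most alike for all genes, with 78.7% within 1.5-fold. Among genes at 10 FPKM or more in every library, 89.3% were. The 6 pairs share their 4 libraries, so their values are not independent of each other.

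**Figure D3:**
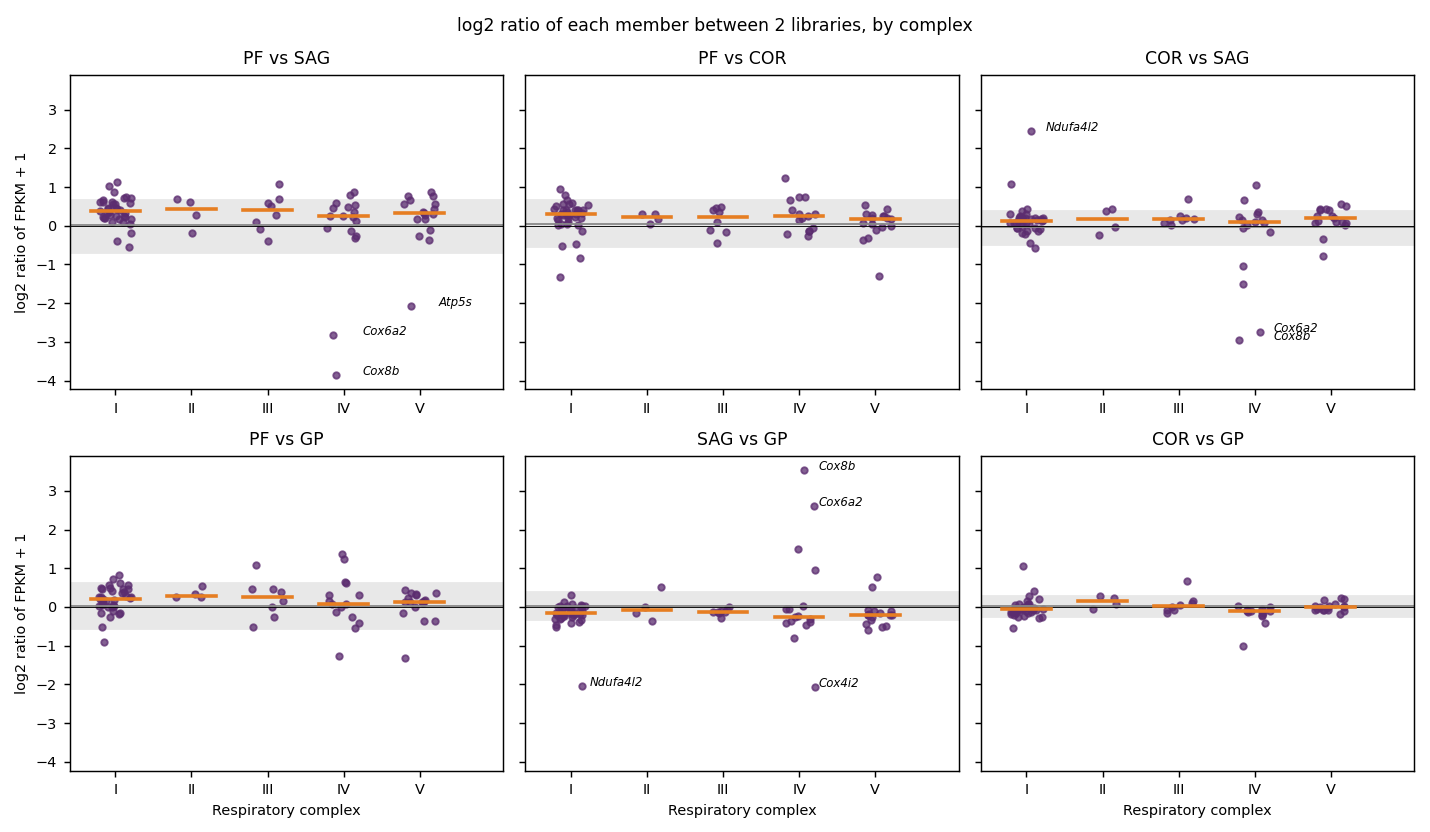
log2 ratio of FPKM + 1 for each member in 6 pairs of libraries, by complex. Orange bars mark the median of a complex, the grey band the middle range of all genes between its quartiles, and names mark members past 3-fold. Medians lie above 0 for PF vs SAG as deposited (0.25 to 0.44), those of complexes III, IV and V turn below 0 under quantile normalization, and that of complex IV also with equal totals.

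Ratios with PF moved with the base composition of the transcript. Over genes at 10 FPKM or more in every library, split into 5 groups by the GC content of the longest coding transcript, the median log2 ratio of PF to SAG went from -0.31 in the group lowest in GC to 0.58 in the highest. The same groups went from -0.28 to 0.31 for PF vs COR and from -0.36 to 0.44 for PF vs GP. Across the 77 members at this level, the Spearman coefficient between GC and the PF vs SAG ratio was 0.41, against 0.47 across 4758 genes. Of the 26 members highest in GC (53.9 to 60.8%), 24 were highest in PF, and their median PF vs SAG ratio was 0.53, against 0.47 for all genes of that GC range. Of the 26 lowest in GC (38.4 to 49.1%), 13 were highest in PF, with a median of 0.21 against -0.19. Among all genes at this level 38.9% were highest in PF, and the shares within these GC ranges were not computed. Members were close to all genes in GC (median 51.7% and 50.3%) and shorter (median 861 and 2926 bases). After correction of each ratio for GC, the members' median for PF vs SAG was 0.24, with 54 of 83 above 0. After correction for length it was 0.06.

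**Figure D4:**
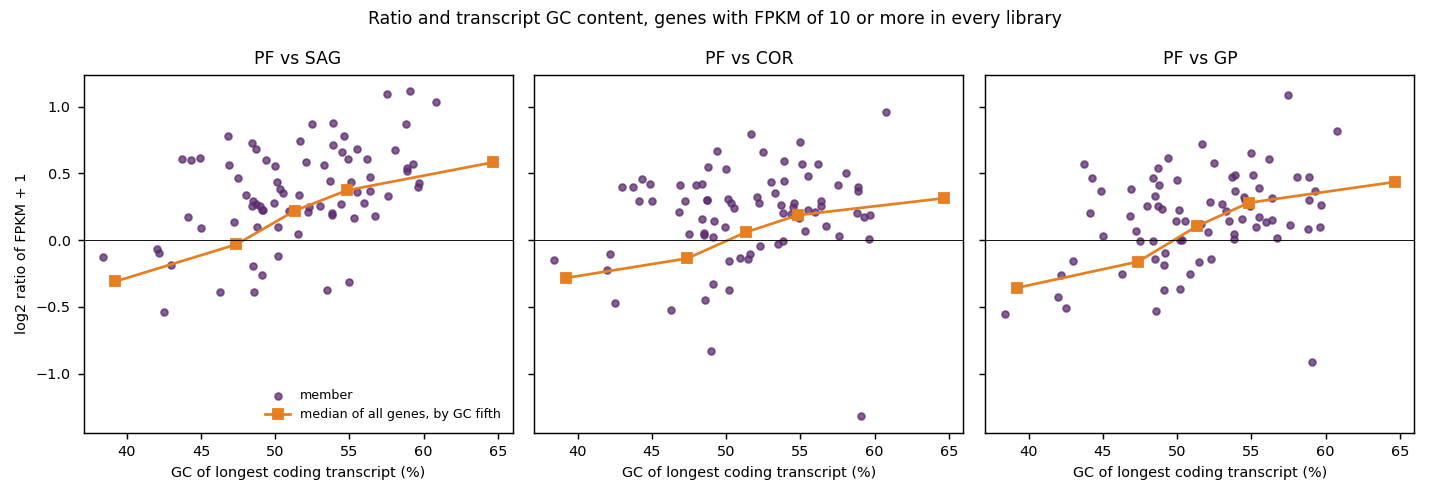
log2 ratio of FPKM + 1 of PF to SAG, COR and GP against transcript GC content (%). Points are members at 10 FPKM or more in every library, and squares are medians of all such genes in 5 groups by GC. The squares climb in each panel, from -0.31 to 0.58 for PF vs SAG, and members spread around and above them.

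Complex I, the NADH dehydrogenase, had summed levels of 8670 (PF), 6275 (SAG), 6902 (COR) and 7110 (GP) FPKM. Its 7 core subunits, which carry the flavin and iron-sulphur clusters, had a median log2 ratio of PF to SAG of 0.20 and none passed 1.5-fold in that pair. Its 29 structural accessory subunits had a median of 0.43, with 28 above 0 and 9 (31%) past 1.5-fold higher in PF, near the 28.1% of all genes. With equal totals the median of all complex I genes was 0.08. The abundant accessory genes were *Ndufa4*, at 611 (PF), 399 (SAG), 457 (COR) and 472 (GP) FPKM, *Ndufa3*, at 618, 369, 355 and 375, and *Ndufa2*, at 412, 279, 323 and 355. The product of *Ndufa4* is now assigned to complex IV, although its name places it here.

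The complex I genes that stood apart from all other libraries by 1.5-fold or more were *Ndufa3* and *Ndufa13* (higher in PF), *Ndufs5* (higher in COR) and *Ndufa4l2* (lower in SAG). *Ndufa13*, which encodes a small membrane subunit also known as GRIM-19, was at 282 (PF), 137 (SAG), 145 (COR) and 160 (GP) FPKM. PF was thus alone above the other libraries, by 1.76-fold or more on FPKM + 1. The *Ndufa13* transcript has 60.8% GC and its exons overlap those of *Tssk6* on the opposite strand, and its log2 ratio of PF to SAG was 1.03 as deposited and 0.32 after GC correction. For *Ndufa3* the PF vs COR ratio was 0.80 as deposited and between 0.60 and 0.80 over all alternatives.

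*Ndufs5* (chr4:123389953-123395445 in mm9), a gene of an accessory subunit facing the intermembrane space, was at 38.1 FPKM in COR, 21.0 in PF, 17.4 in SAG and 17.7 in GP. COR was alone at about 2-fold over SAG and GP, with log2 ratios of 1.09 and 1.06. The ratio to SAG lay between 0.96 and 1.13 over all alternatives. *Ndufs4*, whose product helps assemble the electron input arm, was lowest in COR instead, at 35.5 FPKM against 47.1 in PF, 53.7 in SAG and 52.7 in GP. *Ndufs5* stood alone among accessory genes in this, since the other 28 of 29 differed by less than 1.5-fold between COR and SAG.

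*Ndufa4l2* (chr10:126951995-126954208 in mm9) had the widest range among abundant members. This paralog of *Ndufa4*, known as a gene induced under low oxygen and expressed in pericytes, was at 256 FPKM in COR, 193 in GP, 102 in PF and 46.4 in SAG. Each neighbouring pair in this order differed by 1.33-fold (COR and GP), 1.88-fold (GP and PF) and 2.17-fold (PF and SAG) on FPKM + 1. After GC correction the PF vs SAG log2 ratio was 0.47, against 1.12 as deposited, so that SAG no longer stood 1.5-fold below PF. COR exceeded SAG by a log2 ratio of 2.44, and by 2.19 to 2.46 over all alternatives. Of the summed level of *Ndufa4* and *Ndufa4l2*, the latter made up 35.9% in COR, 29% in GP, 14.3% in PF and 10.4% in SAG. Its exons overlap those of *Shmt2* on the opposite strand, and the sources used here do not state that counting used strand.

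Complex II, succinate dehydrogenase, also works in the tricarboxylic acid cycle. *Sdhb*, the iron-sulphur subunit, was at 216 (PF), 141 (SAG), 193 (COR) and 181 (GP) FPKM. *Sdhc*, a membrane anchor, was at 138, 85.5, 112 and 94.6 FPKM, and *Sdhd*, the other anchor, at 218, 181, 177 and 182 FPKM. PF was the highest library for these 3 genes. The fourth, the flavoprotein *Sdha*, was lower in PF (71.1 FPKM) than in SAG (81.6 FPKM), with COR at 69.0 and GP at 56.4.

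Complex III, the cytochrome bc1 complex, was led by small subunits. *Uqcr10* was at 723 (PF), 450 (SAG), 518 (COR) and 551 (GP) FPKM, *Uqcr11* at 539, 377, 418 and 388, and *Uqcrq* at 469, 438, 523 and 468. *Uqcrq* therefore differed little, with its highest value in COR. *Uqcrc1*, a core protein outside the membrane, was the complex III gene with the widest range, at 269 FPKM in PF and 202 in COR against 126 in both SAG and GP. Its log2 ratio of PF to SAG was 1.09 as deposited and 0.53 after GC correction, the smallest value over the alternatives. *Uqcrc2*, its partner, was at 106, 69.8, 77.0 and 76.4 FPKM, with a PF vs COR ratio of 0.46 and a COR vs GP ratio of 0.01 where *Uqcrc1* had 0.41 and 0.68.

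A smaller set of members ran the other way and was lowest in PF. These 11 genes, 13.3% of members against 35.8% of all genes, included catalytic or core subunits, a choice of examples made after their values were seen. *Ndufs1* and *Ndufv2*, core genes of complex I, were at 26.9 and 74.7 FPKM in PF, against 35.5 and 109 in SAG. *Uqcrfs1*, the Rieske iron-sulphur protein of complex III, was at 69.8 (PF), 91.8 (SAG), 95.9 (COR) and 101.2 (GP) FPKM. *Atp5f1*, a stalk subunit of complex V, was at 115, 138, 145 and 150 FPKM. Most core genes of complex I went the other way, with 5 of 7 higher in PF than in SAG. The GC content of the 4 transcripts named was 46.3%, 42.5%, 48.6% and 49.1%. Over all 11 genes lowest in PF it ran from 38.4% (*Cox7c*) to 55.8% (*Cox8b*), with *Cox6a2* at 53%.

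Complex V, ATP synthase, had summed levels of 6593 (PF), 4820 (SAG), 5812 (COR) and 5772 (GP) FPKM. SAG was lowest in 13 of its 17 genes as deposited, against 27.4% of all genes and 37.5% of those at 10 FPKM or more in every library. The median log2 ratio of PF to SAG was 0.34, turning to -0.06 under quantile normalization. The most distant abundant genes were small subunits. *Atp5k* was at 591 (PF), 322 (SAG), 434 (COR) and 457 (GP) FPKM, and *Atp5e* at 694, 404, 573 and 563. Their PF vs SAG log2 ratios were 0.88 and 0.78 as deposited and at the least 0.35 and 0.23 over the alternatives. Of the 3 subunit c genes, *Atp5g1* was at 278, 162, 240 and 245 FPKM and *Atp5g2* at 85.9, 76.5, 81.7 and 80.3 FPKM. *Atp5g3* made up 67.1% to 71.9% of their sum, *Atp5g1* 19.1% (SAG) to 24.5% (COR), and *Atp5g2* 7.53% (PF) to 9.03% (SAG).

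*Atp5s* (chr12:70825949-70845645 in mm9) was the exception in complex V. It encodes factor B, a coupling factor of ATP synthase and not a structural subunit, and was at 15.2 FPKM in SAG, 8.51 in COR, 8.55 in GP and 2.83 in PF. COR and GP did not differ, SAG stood 1.70-fold or more above the others and PF 2.48-fold or more below them on FPKM + 1. The PF value corresponds to about 72 fragments, the SAG value to about 871. The SAG vs PF difference ranged in size from 1.47 to 2.39 on the log2 scale over the alternatives, and its transcript has 39% GC. *Atp5sl*, a related gene by name, was at 15.8 FPKM in SAG, 12.0 in PF, 12.3 in COR and 10.8 in GP.

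Complex IV, cytochrome c oxidase, held most genes that separated the libraries. Its common forms were closer to each other, with SAG lowest for some and PF or COR for others. *Cox6a1* in SAG was 1.59-fold or more below the other libraries as deposited, and its log2 ratio of PF to SAG of 0.87 shrank to 0.13 at the least over the alternatives. *Cox8a* was at 774 (PF), 533 (SAG), 588 (COR) and 629 (GP) FPKM, and its ratio of PF to SAG, 0.54 as deposited, turned to -0.10 after GC correction. *Cox6b1* was at 601, 505, 621 and 662 FPKM, and *Cox7a2* at 265, 222, 238 and 266 FPKM. *Cox7b* was at 134, 140, 156 and 180 FPKM and *Cox7c* at 311, 339, 344 and 456 FPKM, both highest in GP and lowest in PF. *Cox6c* was lowest in COR, at 557, 507, 454 and 530 FPKM. *Cox7a2l*, which encodes a factor joining complexes III and IV into a supercomplex, was at 64.9 FPKM in PF against 42.5, 40.5 and 42.1 in SAG, COR and GP. PF was 1.52-fold or more above the others, and the PF vs COR ratio lay between 0.48 and 0.73 over the alternatives.

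The tissue forms of complex IV subunits showed the widest differences, at low levels. *Cox8b* (chr7:148084842-148086345 in mm9), the muscle and brown fat form of subunit 8, was at 13.5 FPKM in SAG, 0.87 in COR, 0.25 in GP and 0 in PF, or about 188, 11, 3 and 0 fragments. *Cox6a2* (chr7:135348950-135349880 in mm9), the heart and skeletal muscle form of subunit 6A, was at 6.13 FPKM in SAG, 0.16 in GP, 0.05 in COR and 0 in PF, or about 155, 3, 1 and 0 fragments. SAG was thus the only library with more than 1 FPKM of either gene. The promoter of *Cox8b* printed above held none of the 5 motifs, and neither did that of the common subunit gene *Cox7c*. Even in SAG, *Cox8b* made up 2.47% of the subunit 8 level and *Cox6a2* 0.96% of that of subunit 6A.

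*Cox7a1*, the muscle form of subunit 7A, followed them only in part, at 7.65 FPKM in SAG, 6.17 in PF, 2.07 in COR and 2.05 in GP. SAG and PF differed by a log2 ratio of -0.27 for PF over SAG, and COR and GP by 0.01, whereas SAG exceeded GP by 1.51. *Cox6b2*, known from testis, was also higher in SAG and PF than in GP and COR, at 58.9 FPKM in SAG, 47.2 in PF, 29.8 in GP and 28.0 in COR, and made up 10.4%, 7.28%, 4.3% and 4.31% of the subunit 6B level. *Cox7b2* was at 1.58 (PF), 0.85 (SAG), 0.54 (COR) and 0 (GP) FPKM, at most about 18 fragments in a library.

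Most defining genes of skeletal muscle were at or near 0 in the library with these muscle forms. In SAG, *Ckm*, *Acta1*, *Actc1*, *Myl1* and *Myod1* were listed at 0, *Myh3*, *Myh8*, *Tnnc2* and *Myog* were below 1 FPKM, and *Tnnt3* was at 6.02 and *Mylpf* at 3.06 FPKM. The summed level of the 11 muscle genes was 9.69 FPKM in SAG, 11 in PF, 6.41 in COR and 9.92 in GP, and *Mylpf* made up 7.68 FPKM of it in PF. Single genes differed in their highest library. *Tnnt3* was highest in SAG, against 1.88 to 2.97 FPKM elsewhere, and *Myog* was at 0.36 FPKM in SAG and 0 elsewhere. *Acta1*, *Actc1*, *Myl1* and *Tnnc2* were highest in GP, at 0.99 to 1.59 FPKM. Of the brown fat genes, *Ucp1* was at 0.06 FPKM in SAG and *Cidea* at 1.90, against 0.27 or less in the other libraries, while *Ucp1* was at 0.40 in PF. The summed level of the 6 neural and choroid plexus genes was 5276 FPKM in SAG and 12.7 to 478 elsewhere. *Ttr* made up most of this sum in SAG (5103 FPKM), while *Tubb3*, of the same list, was highest in COR (10.2 FPKM, against 1.28 in SAG). *Cox8b* and *Cox6a2* were also highest in SAG. Both were listed at 0 in PF, where the sum was 478 FPKM and depth was 44.8% of that of SAG. The part of muscle or choroid plexus RNA in the levels of *Cox8b* and *Cox6a2* was not tested.

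*Cox4i2* (chr2:152579909-152590773 in mm9) behaved differently. This form of subunit 4, known from lung and induced under low oxygen, was at 21.8 FPKM in GP, 10.3 in COR, 8.51 in PF and 4.44 in SAG. GP was alone at the top, 2.01-fold above COR on FPKM + 1, COR and PF differed by 1.19-fold, and SAG was the lowest by 1.75-fold or more. After GC correction the PF vs SAG log2 ratio was 0.28, against 0.80 as deposited, so that SAG and PF were less than 1.5-fold apart. The SAG vs GP log2 ratio was -2.06, with a size of 1.83 to 2.27 over the alternatives. *Cox4i2* accounted for 2.83% of the subunit 4 level in GP, 1.34% in COR, 0.91% in PF and 0.61% in SAG. *Cox4i2* and *Ndufa4l2* thus shared SAG as their lowest library and differed in their highest.

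**Figure D5:**
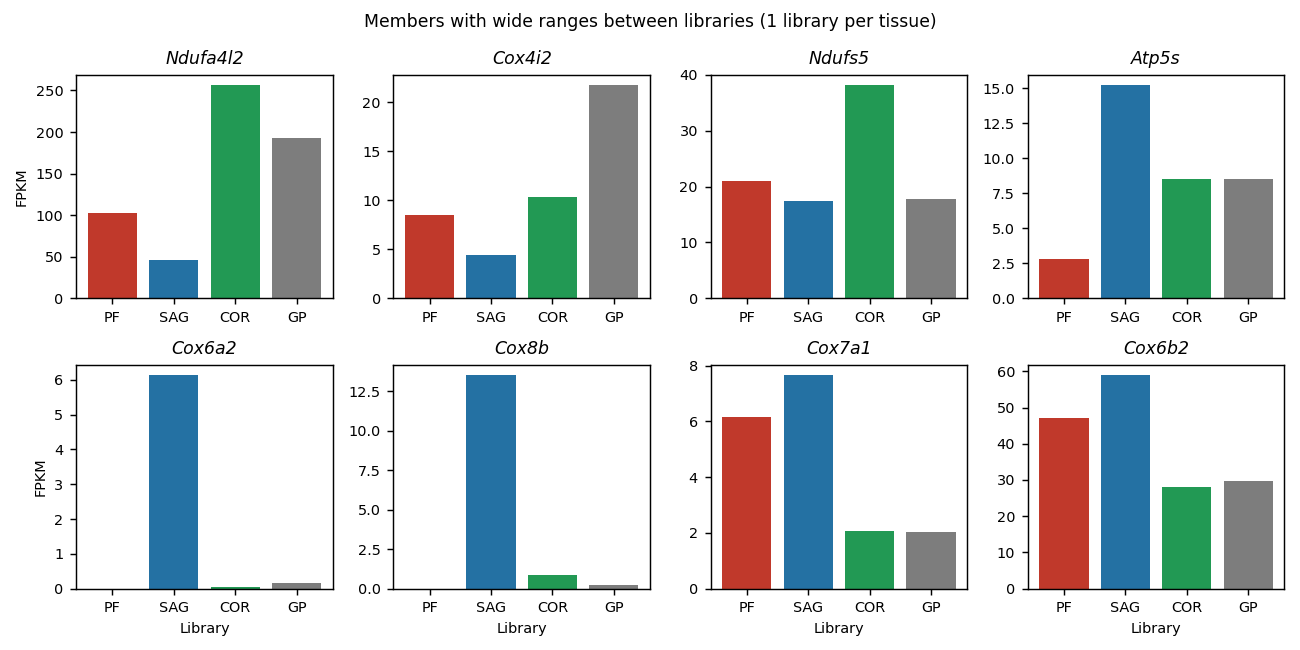
FPKM of 8 members with wide ranges in the PF, SAG, COR and GP libraries (1 library per tissue, bars start at 0, each panel has its own scale). *Cox8b* and *Cox6a2* stand up only in SAG (13.5 and 6.13 FPKM), *Ndufs5* is tallest in COR (38.1 FPKM), *Cox4i2* in GP (21.8 FPKM), and *Atp5s* is lowest in PF (2.83 FPKM).

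The 49 members not chosen by the rule for named genes had ranges of 1.13-fold to 1.83-fold over the 4 libraries, on FPKM + 1. Of these members, 34 were highest in PF (35.2% of all genes) and 29 lowest in SAG (27.4%) as deposited. Exons of 19 of the 84 members overlap exons of another annotated gene, such as *Atp5j* with *Gabpa*, *Atp5f1* with *Wdr77*, *Ndufa2* with *Tmco6*, *Uqcrc2* with *Pdzd9* and *Cox6a2* with *Itgad*. Reads of such genes may not have been told apart where counting ignored strand. The 84 genes lie on 19 chromosomes, with 9 at most on 1 of them and 3 on X (*Ndufa1*, *Ndufb11* and *Cox7b*).

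Other genes of the pathway were compared in the same way. The 9 genes for cytochrome c and carriers had a median log2 ratio of PF to SAG of -0.03, with 4 above 0 and 5 below. For the oxidative phosphorylation subunits this median was 0.34 as deposited. None of the 9 genes was 1.5-fold or more lower in PF than in SAG (28.5% of all genes). Higher in PF were 3 (33.3%, against 28.1% of all genes). These were *Cyc1*, the cytochrome c1 subunit of complex III that the name pattern missed (266, 149, 186 and 157 FPKM in PF, SAG, COR and GP), *Slc25a4*, an ADP/ATP carrier (810, 463, 552 and 512 FPKM), and *Vdac1*, an outer membrane channel (115, 76.2, 84.4 and 57.1 FPKM). *Ndufab1*, whose symbol the name pattern also missed, was at 56.7 (PF), 57.9 (SAG), 61.3 (COR) and 76.1 (GP) FPKM. *Slc25a5*, the second ADP/ATP carrier, was lower in PF than in COR (162 and 297 FPKM). Of 13 tricarboxylic acid cycle genes, 5 (38.5%) were 1.5-fold or more lower in PF than in COR, against 23.6% of all genes. None was higher (26.9% of all genes), and the median log2 ratio was -0.34. Citrate synthase (*Cs*) was at 42.1 (PF), 47.8 (SAG), 84.1 (COR) and 61.0 (GP) FPKM. The oxidative phosphorylation subunits had a median of 0.25 in that pair.

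The 39 assembly factors analysed had medians close to 0 in every pair (-0.11 to 0.02). In PF vs SAG, 5 were 1.5-fold or more higher (12.8%, against 28.1% of all genes) and 7 lower (17.9%, against 28.5%). *Bcs1l*, the complex III assembly factor that inserts the Rieske protein, was at 0.23 FPKM in PF against 6.94 in SAG, 9.43 in COR and 7.15 in GP. *Uqcc2*, another complex III factor, was at 376, 187, 279 and 237 FPKM, in the order PF, SAG, COR and GP, and had its highest value in PF as *Uqcrc1* did. *Tmem70*, a complex V factor, was at 18.4 FPKM in PF and 38.9 in SAG.

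The regulators of respiratory genes were mostly low. In PF vs SAG, 10 of 15 compared were lower in PF, as were 6607 of all 13490 genes compared. The median log2 ratio of the regulators was -0.55, against 0.03 for all genes. *Yy1* was at 1.32 (PF), 7.62 (SAG), 9.31 (COR) and 8.36 (GP) FPKM. *Gabpa*, *Gabpb1* and *Gabpb2*, which encode the subunits of GABP, were at 8.40, 9.16 and 0.67 FPKM in PF and at 9.75, 19.95 and 1.77 FPKM in SAG. *Nrf1* was at 16.6 (PF), 13.4 (SAG), 13.3 (COR) and 12.5 (GP) FPKM. Neither *Nrf1* nor *Gabpa* differed by 1.5-fold between PF and SAG.

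The coactivators were at low levels. *Ppargc1a* was at 2.35 FPKM in SAG, 1.29 in PF, 0.77 in GP and 0.29 in COR, whereas *Ppargc1b* was at 1.54 in COR and 0.31 in SAG and *Pprc1* at 11.4 in COR and 4.46 in SAG. *Esrrg*, a nuclear receptor of oxidative tissues, was at 1.53 FPKM in SAG, 0.01 in GP and 0 in PF and COR. *Cox8b* and *Cox6a2* were also highest in SAG, as were 28.4% of all genes, and a link between these genes was not tested. *Esrra* was at 5.65 in COR and 2.81 in SAG. Of the genes for maintenance and transcription of mitochondrial DNA, *Tfam* was at 5.53 FPKM in PF and 8.61 in SAG, *Tfb1m* at 2.87 and 6.88 and *Tfb2m* at 1.66 and 5.53, while *Polrmt* was at 8.39 and 5.65, *Polg* at 12.5 and 7.66 and *Polg2* at 7.41 and 7.65.

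Ribosomal protein genes, also short and abundant transcripts of large complexes, gave a yardstick, as deposited and with no other scaling computed for them. The 77 mitochondrial ribosomal protein genes had medians of 0.23 (PF vs SAG), 0.10 (COR vs SAG), 0.10 (PF vs COR) and -0.17 (SAG vs GP), each in the direction of the oxidative phosphorylation genes as deposited. The 78 cytosolic ribosomal protein genes compared had medians of 0.30 for PF vs SAG but -0.07 for PF vs COR and -0.20 for PF vs GP, where the oxidative phosphorylation genes had 0.25 and 0.18. For COR vs SAG and SAG vs GP the cytosolic medians were 0.38 and -0.49, larger in size than 0.14 and -0.16 for oxidative phosphorylation. By these values, low levels in SAG were shared with both sets of ribosomal genes, and PF above COR with the mitochondrial set.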

How the data were processed

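Total RNA of sorted CD51+;CD200+ cells was sequenced in paired ends on an Illumina instrument, with 1 library per tissue (PF, SAG, COR and GP). Per the labels and the study's methods, the authors mapped reads to mouse mm9 with STAR 2.5.1b and computed FPKM per gene with Cuffdiff of the Cufflinks 2.2.1 suite, using gene models from iGenomes. FPKM is the unit of the deposited files, and the library scaling, the handling of reads with several positions and the use of strand are not given in the sources used here.

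FPKM were used as deposited. Ratios between libraries were taken as log2(FPKM + 1), with a pseudocount of 1, over genes at 1 FPKM or more in either library of the pair. A difference of 1.5-fold or of 3-fold was counted as a description, since no test is possible with 1 library per tissue. Counts of members are given beside the share of all genes past the same mark. Transcript GC content, length and positions came from GENCODE (M1) annotation of the mm9 assembly (longest coding transcript), and promoters from RefSeq (GRCm38.p6). Fragments were estimated from the smallest FPKM steps of each library and these lengths. Corrections for GC and length used lowess with a span of 0.3, fitted on genes at 5 FPKM or more. Python 3.11.15, numpy 2.4.6, pandas 2.3.3, statsmodels 0.14.6 and matplotlib 3.10.9 were used, and the counting of ratios was checked on simulated data.

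Named genes were, in each complex, the 3 members highest on average and the 2 with the widest range, every member past 3-fold in any pair, the 3 farthest in each direction in each pair, the genes of the isoform groups, and regulators at 1 FPKM or more. The members and gene lists were chosen with earlier results of these data known. Alternatives covered the pseudocount, the filter, the scaling between libraries, GC and length corrections and structural subunits alone. The 13 subunits encoded by mitochondrial DNA were not analysed here.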

Additional observations from a re-analysis of the deposited data

How the results depend on the processing

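No paired analysis was possible because no tissue was sampled more than once. The cause of the shifts below was not tested. With equal totals (TPM scaling), the median log2 ratio of the members was 0.0389 for SAG vs GP, with its sign turned, 0.00809 (COR vs SAG), 0.0826 (PF vs COR) and 0.042 (PF vs SAG). Counts past 1.5-fold were then 5 higher and 6 lower (PF vs GP), 3 higher (COR vs SAG), 4 higher and 6 lower (PF vs COR), and 3 higher and 8 lower (PF vs SAG), and 34 members were highest in PF and 20 lowest in SAG. Of all genes, 22.8% were higher and 27.1% lower (PF vs GP), and 12.9% higher (COR vs SAG). For PF vs COR 22.6% were higher and 28.6% lower, and for PF vs SAG 19.8% and 37.5%. The sign also turned for complex IV in PF vs SAG (-0.0492), COR vs SAG (-0.0477) and PF vs GP (-0.0142), for complexes I (0.0393), II (0.126) and III (0.0703) in SAG vs GP, and for I (0.0186) and V (0.0569) in COR vs GP. Under quantile normalization, the median was 0.0971 for SAG vs GP, -0.0757 (COR vs SAG), 0.11 (PF vs COR) and 0.0176 (PF vs SAG). Counts were 2 lower (SAG vs GP), 5 higher (PF vs GP), 3 higher (COR vs SAG), 4 higher (PF vs COR), and 5 higher and 5 lower (PF vs SAG), with 33 members highest in PF and 14 lowest in SAG. Of all genes, 17.1% were lower (SAG vs GP) and 25.4% (PF vs GP), 19.8% (COR vs SAG) and 24.7% (PF vs COR) higher. For PF vs SAG, 29.2% were higher and 26.7% lower. The sign turned in PF vs SAG for complexes III (-0.0269), IV (-0.139) and V (-0.0603), in COR vs SAG for I (-0.0802), II (-0.0117), III (-0.0629), IV (-0.144) and V (-0.0437), in SAG vs GP for I (0.0934), II (0.113), III (0.172), IV (0.0412) and V (0.14), and in COR vs GP for V (0.00905). GC correction gave medians of 0.029 for PF vs GP and 0.236 for PF vs SAG, with 11 higher and 6 lower (PF vs SAG), 3 higher for COR vs SAG, 1 higher for COR vs GP, and 1 (PF vs COR) and 2 (PF vs GP) past 3-fold. Shares of all genes were 22.3% higher and 28.1% lower (PF vs SAG), 13.6% higher (COR vs SAG) and 6.8% higher (COR vs GP). Past 3-fold were 11% (PF vs COR) and 11.4% (PF vs GP). Length correction gave -0.0436 for SAG vs GP, 0.0806 (3 higher, 5 lower) for PF vs COR and 0.0624 (9 higher, 6 lower) for PF vs SAG, with 6 lower for PF vs GP. Of all genes, 26.1% were higher and 23% lower (PF vs COR), 24.9% and 30.1% (PF vs SAG), and 25.3% lower (PF vs GP). Correction for GC and length together, chosen after seeing the data, gave -0.048 for SAG vs GP, 0.0574 for PF vs GP, 0.0849 for PF vs COR and 0.195 (11 higher, 6 lower) for PF vs SAG, with 3 higher for COR vs SAG and 1 (PF vs COR) and 2 (PF vs GP) past 3-fold. Of all genes, 21.7% were higher and 28.5% lower (PF vs SAG), and 12.9% higher (COR vs SAG). Past 3-fold were 10.9% (PF vs COR) and 11.3% (PF vs GP). The PF vs SAG ratio of *Cox8a* turned to -0.101 with GC and -0.219 with both corrections, and the PF vs GP ratio of *Cox7c* to 0.0116 with both. With 1 FPKM required in both libraries, 1 member was lower and 1 past 3-fold in PF vs SAG, while 3 were lower and 1 past 3-fold in COR vs SAG, and 3 were higher and 2 past 3-fold in SAG vs GP, since *Cox6a2* and *Cox8b* drop out. Of all genes, 21.8% were lower and 8.76% past 3-fold (PF vs SAG), and 15% and 5.56% (COR vs SAG). For SAG vs GP, 12.6% were higher and 4.67% past 3-fold. With structural subunits alone, 1 member was lower in PF vs COR (23.6% of all genes) and 1 in PF vs GP (24.6%). With a pseudocount of 0.1, 1 was past 3-fold in PF vs GP (22.4% of all genes). Leaving out a library, also chosen after seeing the data as were the scalings for these counts, left 56 to 58 members highest in PF and 54 to 58 lowest in SAG. Of all genes, 39.1% to 42.6% were then highest in PF and 32.3% to 38.2% lowest in SAG. Other alternatives, among them median-ratio scaling and a filter at 5 FPKM, moved no median by 0.1 or more and no count by over 1.5 times. FPKM carry no read counts, so counting error is not given, and genes below about 1 FPKM rest on few fragments.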
